A study of Mus musculus with 4 samples.

Results

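The cells described here are the neonatal jejunal enterocytes with the highest share of their RNA in Dab2, Cubn and Amn, the genes of the endocytic complex that takes up protein from the gut lumen. In each of 2 jejunal libraries, cells were kept with 1000 to 6000 genes, at least 2000 UMIs (distinct RNA molecules counted by their barcodes), a mitochondrial share under 20%, at least 3 of the enterocyte genes Fabp1, Fabp2, Apoa1, Apoa4, Alpi and Lct detected, and fewer than 2 of the cell cycle genes Mki67, Top2a, Ube2c, Cdk1 and Birc5 detected. The 10% of these cells with the highest summed share of Dab2, Cubn and Amn were taken per library and are called high cells below. They were 774 of 7743 kept cells in jejunum replicate 1 and 501 of 5011 in replicate 2, together 1275 of 12754 kept jejunal cells and of 36202 called cells in all 4 libraries. The lowest 10% of each library, of the same number, are called low cells, and the cells between the 40th and 60th percentile middle cells.

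The libraries came from wild-type (WT) mice at postnatal day 6 (P6), with no treatment named in the labels. Jejunum and ileum of the same animal gave replicate 1 of both regions, and a second animal gave replicate 2, so that each region had 2 libraries from 2 mice, with 1 batch per mouse. The epithelium was released with EDTA, dispersed to single cells and captured by PIPseq, a droplet method that counts the 3′ ends of transcripts. Replicate 1 was labelled male and replicate 2 female, but Xist was at 542 and 429 CPM (a gene's UMIs scaled by all UMIs of the same cells) in the libraries of replicate 1 and at 0.653 and 0.77 CPM in those of replicate 2, and the Y-linked Eif2s3y and Kdm5d showed the opposite. Both labels were therefore contradicted, and sex enters no comparison.

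Milk proteins reach the small intestine of suckling mice largely undigested, and enterocytes with large lysosomal vacuoles take them up across the apical membrane. Cubilin, encoded by Cubn, is a large peripheral receptor that depends on amnionless, encoded by Amn, to reach the membrane, and Dab2 is the adaptor that links such receptors to clathrin. Cargo is either degraded by hydrolases in lysosomes, which the V-type proton pump acidifies, or is carried through the cell, as for milk antibodies bound by the neonatal Fc receptor.

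The jejunal libraries held 64391480 and 57951874 UMIs in 10001 and 7539 called cells, and the ileal libraries 131400239 and 125067265 UMIs in 8962 and 9700 called cells. Called barcodes shared by 2 libraries numbered 1 between the jejunal libraries and 1 between the libraries of jejunum and ileum replicate 2, and none was among the kept cells. The doublet caller Scrublet marked 1 cell in each library, too few for it to have worked, and no doublets were removed. In 17 and 10 jejunal cells with at least 3 immune markers, Dab2 was at 91.8 and 0 CPM, Cubn at 16.7 and 0 CPM and Amn at 267 and 0 CPM, at median depths of 5061 and 6532.5 UMIs. Whether such counts came from free RNA or from the cells themselves was not tested, and values below are sums over many cells.

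The 3 genes chose the cells, so their levels are a description. Summed over all UMIs of the high cells, Dab2, Cubn and Amn together reached 3508 CPM in jejunum replicate 1 and 2499 CPM in replicate 2, against 1945 and 1312 CPM in the middle cells and 467 and 214 CPM in the low cells. Each gene followed, with Dab2 at 706 and 570 CPM in high and 107 and 39 CPM in low cells, Cubn at 451 and 359 against 54.6 and 20.4 CPM, and Amn at 2352 and 1571 against 305 and 155 CPM. All 3 transcripts were seen in 75.3% and 75.4% of the high cells and in 5.17% and 0.998% of the low cells. The high cells were not set apart by a gap. The last cell inside the limit and the first outside had 3067.48 and 3067.48 CPM in replicate 1 and 2179.04 and 2177.79 CPM in replicate 2, and 886 and 554 cells lay within 10% of the limit. At the other end, 161 and 186 kept cells held no UMI of any of the 3 genes.

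A median of 17 rule UMIs per high cell in either library means that counting error entered the choice. When each cell's rule UMIs and its total were split at random into 2 parts of about equal size and cells were chosen on the first, those UMIs gave 3949 and 2818 CPM and the other UMIs of the same cells 2515 and 1819 CPM. All kept cells together were at 2012 and 1428 CPM. The UMIs that did not choose the cells thus stood above the level of all cells in both libraries, by far less than those that did. The high cells are the upper end of a range of shares in which no gap was seen. Counting error at this depth could blur a gap, so that a separate class cannot be told apart from a continuous range.

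Whether the 3 genes rise in the same cells was tested by leaving each out of the choice in turn. With cells chosen by Cubn and Amn alone, Dab2 was at 457 and 357 CPM in the highest 10% and at 303 and 198 CPM in the lowest 10%. The difference was 0.91 ± 0.14 on the log2 scale (± standard error throughout, n = 2 libraries per region, adjusted p = 1.35e-05 by the quasi-likelihood test of edgeR, with p-values adjusted across every gene tested by the Benjamini-Hochberg method, as for each p below). Cubn, in cells chosen by Dab2 and Amn, was at 262 and 235 CPM against 195 and 84.6 CPM (log2 difference 1.16 ± 0.20, adjusted p = 2.73e-04). Its difference was 1.78 without jejunum replicate 1 and 0.73 without replicate 2, further apart than the standard error shows. Amn, in cells chosen by Dab2 and Cubn, was at 1129 and 955 CPM against 869 and 540 CPM (0.70 ± 0.15, adjusted p = 4.31e-04). Each gene was thus higher in the highest than in the lowest cells by the other 2, in both libraries. Low cells by all 3 genes more often held markers of other cell types (below). This test was not run against middle cells or without such cells, so a joint rise among enterocytes alone was not tested. Nor was it run with scaling by UMI totals alone. By CPM, Dab2 was 1.51 and 1.80 times higher, in both libraries less than the fitted difference, which includes edgeR's scaling factors. For Cubn and Amn the fitted difference lay between the libraries. With every cell thinned to 2000 UMIs the differences were 0.55, 0.71 and 0.25, and that of Amn no longer passed (adjusted p = 0.136), as it did not without the library block (adjusted p = 0.0926). In the ileum the same differences were 0.49, 0.72 and 0.36, and with all libraries none differed between the regions by the test of the difference (0.42, 0.44 and 0.34, adjusted p = 0.264, 0.429 and 0.458). That of Cubn rested on the library, at 1.06 without jejunum replicate 1 (adjusted p = 0.00645) and 0.0176 without replicate 2 (adjusted p = 0.989).

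**Figure D1:**
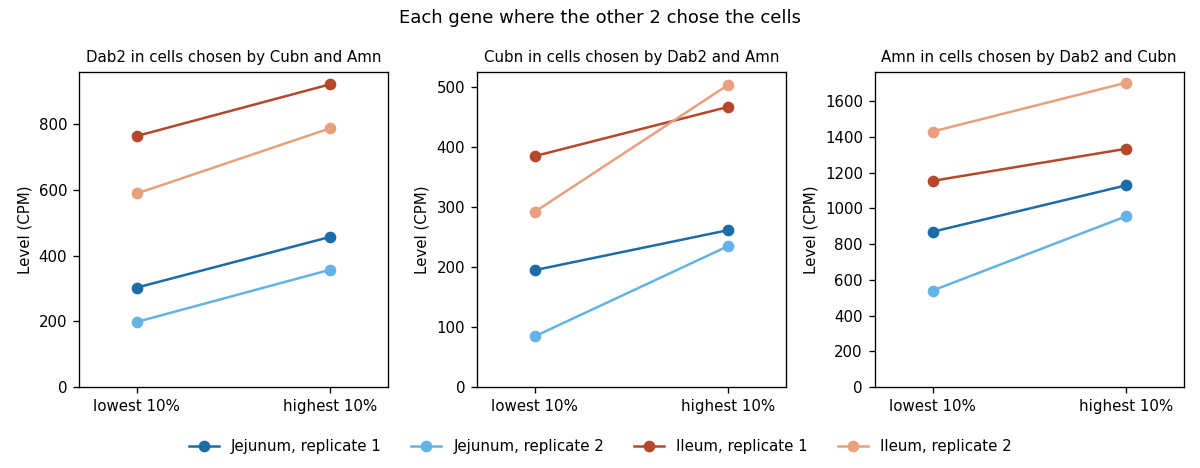
Level in CPM (vertical axis) of each gene in the lowest and highest 10% of cells chosen by the other 2 genes, 1 line per library. Every line rises to the highest cells, with Dab2 at 457 and 357 CPM there in the jejunum.

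The start regions of the genes are shown because the transcripts of the complex differed together between highest and lowest cells. That of Ctsl, the lysosomal peptidase gene that rose most against the low cells, is added. Each window holds 250 bases before and 50 after the annotated start, 5′ to 3′ on the gene's strand, from RefSeq on GRCm38.p6 (the submitters' processing notes name GRCm39 for the counts, so coordinates refer to GRCm38.p6 alone). Capitals mark CACGTG, the core of the element bound by TFEB and related factors of lysosomal genes, and GTTAAT, 1 arm of the site of the HNF1 factors.
Dab2, first start, chr15:6299539-6299838, plus strand: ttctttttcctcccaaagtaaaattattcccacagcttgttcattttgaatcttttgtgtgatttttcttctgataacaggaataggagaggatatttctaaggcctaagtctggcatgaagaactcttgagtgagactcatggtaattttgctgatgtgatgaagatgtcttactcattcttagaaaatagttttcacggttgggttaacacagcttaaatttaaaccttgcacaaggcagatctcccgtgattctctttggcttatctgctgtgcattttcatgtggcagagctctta
Dab2, second start, chr15:6386498-6386797, plus strand: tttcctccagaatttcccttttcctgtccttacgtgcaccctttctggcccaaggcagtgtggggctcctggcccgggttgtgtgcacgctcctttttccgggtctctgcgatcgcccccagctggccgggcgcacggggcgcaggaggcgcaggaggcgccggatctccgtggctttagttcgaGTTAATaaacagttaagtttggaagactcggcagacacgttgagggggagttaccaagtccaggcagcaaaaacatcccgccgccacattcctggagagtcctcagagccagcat
Cubn, chr2:13491827-13492126, minus strand: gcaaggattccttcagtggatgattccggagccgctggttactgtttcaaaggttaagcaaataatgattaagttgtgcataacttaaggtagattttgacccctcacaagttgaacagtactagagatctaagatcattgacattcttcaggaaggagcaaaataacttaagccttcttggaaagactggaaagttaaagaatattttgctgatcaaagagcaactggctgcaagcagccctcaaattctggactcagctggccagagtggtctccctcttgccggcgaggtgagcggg
Amn, chr12:111270846-111271145, plus strand: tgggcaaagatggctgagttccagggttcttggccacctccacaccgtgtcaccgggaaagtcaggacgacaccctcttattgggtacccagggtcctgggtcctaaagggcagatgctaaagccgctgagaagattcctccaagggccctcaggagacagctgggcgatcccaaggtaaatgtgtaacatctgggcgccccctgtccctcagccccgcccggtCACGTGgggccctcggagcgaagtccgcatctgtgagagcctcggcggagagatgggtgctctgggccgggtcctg
Ctsl, chr13:64370471-64370770, minus strand: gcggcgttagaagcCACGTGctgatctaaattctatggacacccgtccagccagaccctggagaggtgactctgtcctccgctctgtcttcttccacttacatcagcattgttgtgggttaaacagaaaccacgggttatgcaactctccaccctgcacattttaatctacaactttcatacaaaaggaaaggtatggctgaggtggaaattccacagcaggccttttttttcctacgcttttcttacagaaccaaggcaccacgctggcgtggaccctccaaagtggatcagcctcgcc
CACGTG reads the same on both strands and occurred once in the windows of Amn and Ctsl. GTTAAT, searched on both strands, occurred once in the second Dab2 window. Of 27025 genes with a window, 8.09% held CACGTG and 8.24% held GTTAAT. Of 57 matched genes in the 3 lysosomal gene lists described below, 19 (33.3%) held CACGTG and 3 (5.26%) held GTTAAT. These are letter matches and no measure of binding. The transcripts of Tfeb and Tfe3 themselves were at 47.4 and 38.3 CPM and at 38.2 and 28 CPM in high cells, against 51.8 and 44.9 and 34.3 and 30.4 CPM in low cells, and neither passed the test (log2 0.04 ± 0.16 and 0.24 ± 0.17, adjusted p = 0.868 and 0.265).

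Other properties of the cells moved with the choice. High cells held a median of 4920 and 6703 UMIs against 6544 and 6567 in middle and 3060 and 3504 in low cells. Their median mitochondrial share was 4.67% and 7.19% against 4.86% and 10.2% in middle and 9.79% and 13% in low cells. In the ileum, high cells by the same rule held 7723.5 and 6518 UMIs against 16757 and 14698 in middle cells. Depth therefore did not rise steadily with the choice, and the middle cells also differ in depth. Low jejunal cells more often held markers of other cell types. Cells with at least 2 markers of 1 other type were 269 of 774 and 164 of 501 low cells but 116 and 106 high cells, among them 64 and 36 low against 14 and 15 high cells with enteroendocrine markers. They were also 22.0% and 24.4% of the middle cells and 21.2% and 24.2% of all kept jejunal cells. In the ileum they were 50.1% and 41.7% of kept cells, mostly by goblet markers. High ileal cells held more of them (47.6% and 36.1%) than low ones (36.0% and 32.9%). A count of 2 markers does not fix a cell's type, and "without cells of other types" below means without cells that reached this count. Leaving these cells out kept 6105 and 3799 jejunal and 3291 and 4432 ileal cells. The 9 enteroendocrine markers summed to 1851 and 1976 CPM in low, 48.4 and 45.5 CPM in high and 40.3 and 42.7 CPM in middle cells. Their level thus set the lowest cells apart and not the high cells from the middle. The 10 immune markers summed to 170 and 88.4 CPM in low and to 4.03 and 2.95 CPM in high cells, and the 8 goblet markers to 852 and 696 against 94.4 and 80.4 CPM in high and 66.8 and 59.6 CPM in middle cells. The goblet peptide gene Tff3 was lower in high than in low cells but higher than in middle cells (0.52 ± 0.13, adjusted p = 0.00719). Their part in the results was not tested beyond leaving such cells out. For this reason the counts of the lists of enterocyte genes below are given against the low cells, against the middle cells, and against low cells after every cell with such markers was left out, which was added after seeing the data.

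Against the low cells, with Dab2, Cubn and Amn left out, 6264 of 13535 genes tested (46.3%) passed an adjusted p of 0.05, 3078 higher (22.7%) and 3186 lower (23.5%) in high cells. Against the middle cells 1709 of 13843 passed (12.3%), 792 higher (5.72%) and 917 lower (6.62%), and 1239 of the genes called against the low cells were among them, 1180 in the same direction. Without the cells holding markers of other types 3220 of 11553 passed (27.9%), 14.3% higher and 13.6% lower. The median difference of all genes was -0.05 on the log2 scale. Scaling by UMI totals alone, without TMM factors, moved it by -0.21 and gave 2103 higher (15.5%) and 4243 lower genes (31.3%, together 46.9%), while the choice of high and low cells within bins of depth and mitochondrial share (5 of each) gave 2868 higher (20.2%) and 2897 lower (20.4%, together 40.6%).

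The machinery of apical endocytosis rose against the low cells but hardly against the middle cells. Of 30 listed genes, 18 rose and 1 fell (median 0.49), of which 13 rose and 2 fell when scaled by UMI totals. Against the middle cells 2 rose and 2 fell (median 0.09), and without cells of other types 3 rose and 1 fell (median 0.23). Clcn5, which encodes the endosomal chloride-proton exchanger that keeps megalin and cubilin recycling in the kidney tubule, was at 462 and 386 CPM in high, 404 and 307 CPM in middle and 237 and 154 CPM in low cells. It rose in each comparison, by 1.34 ± 0.15 against low (adjusted p = 1.21e-07), by 0.28 ± 0.08 against middle cells (adjusted p = 0.0291) and by 0.82 ± 0.17 without the other types (adjusted p = 1.49e-04). Dnm2, the dynamin that pinches off vesicles, was the other gene that rose against the middle cells, at 198 and 158 against 164 and 138 CPM (0.26 ± 0.08, adjusted p = 0.0434). Rab5a, an early endosome GTPase, and Picalm, a clathrin assembly protein, were the 2 that fell against them (-0.31 ± 0.10 and -0.31 ± 0.08, adjusted p = 0.0444 and 0.0134).

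Lrp2, which encodes megalin, the large receptor that works with cubilin in kidney, was scarce. It was at 10.7 and 1.72 CPM in high cells, from 45 and 7 UMIs, and at 3.17 and 0.907 CPM in low cells. The fitted difference was 1.81 ± 0.41 (adjusted p = 8.03e-04), but 0.71 ± 0.28 against middle cells (adjusted p = 0.107). Mamdc4, the apical endosomal glycoprotein of suckling enterocytes, was at 1821 and 1565 CPM in high, 1578 and 1515 CPM in middle and 1404 and 1134 CPM in low cells. It passed against the low cells (0.63 ± 0.16, adjusted p = 0.00197) and not against the middle cells (0.14 ± 0.08, adjusted p = 0.315). Clathrin heavy chain, Cltc, had 514 and 511 CPM in high and 555 and 481 CPM in middle cells, with a difference of 0.00 ± 0.08 (adjusted p = 0.986), and 373 and 397 CPM in low cells.

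More of the listed lysosomal hydrolases rose than fell in each comparison. Of 15 listed lysosomal peptidases, 13 rose and none fell against the low cells (median 1.27), 7 rose and 1 fell against the middle cells (median 0.34), and 12 rose and none fell without cells of other types (median 0.77). Scaled by UMI totals, 13 rose and 1 fell. Cathepsin L, Ctsl, was at 3216 and 2699 CPM in high, 2083 and 1493 CPM in middle and 749.6 and 447 CPM in low cells. The differences were 2.55 ± 0.16 (adjusted p = 2.54e-11) and 0.76 ± 0.08 (adjusted p = 1.5e-06). Lgmn, the asparaginyl endopeptidase that also matures cathepsins, was at 3488 and 1748 CPM in high, 1744 and 912 CPM in middle and 1007 and 422 CPM in low cells. It rose by 2.13 ± 0.16 and 0.99 ± 0.08 (adjusted p = 3.56e-10 and 6.61e-08). In both libraries the 3 groups of cells stood in the same order for these genes. Ctsb, Ctsa, Ctsd and Ctsz rose by 1.45, 1.51, 1.32 and 1.23 against low and by 0.47, 0.45, 0.49 and 0.39 against middle cells. Ctsc, the dipeptidyl peptidase known for activating proteases of immune cells, fell against the middle cells, at 26.3 and 30.7 against 36.1 and 38.1 CPM (-0.37 ± 0.12, adjusted p = 0.0397).

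Among 27 glycosidases, sulfatases and lipid hydrolases, 22 rose and 2 fell against the low cells (median 1.21), 15 rose and none fell against the middle cells (median 0.29), and 17 rose and none fell without cells of other types (median 0.83). Neu1, the lysosomal sialidase, was at 1574 and 1621 CPM in high, 1139 and 1207 CPM in middle and 715 and 532 CPM in low cells (1.58 ± 0.16 and 0.46 ± 0.08, adjusted p = 2.93e-08 and 3.21e-04). Hexa, the alpha subunit of hexosaminidase, Gusb, beta-glucuronidase, and Lipa, the acid lipase, rose by 1.80, 1.5 and 1.62. The genes that fell against the low cells were Ids and Gm2a, a sulfatase and a ganglioside cofactor. Both were low, at 11.4 and 7.13 CPM and at 1.9 and 3.19 CPM in high cells against 19.7 and 26.7 CPM and 22.9 and 13.6 CPM in low cells. Ids rose against the middle cells (0.87 ± 0.23, adjusted p = 0.0119), and without cells of other types the difference was 1.01 ± 0.42 for Ids and 0.10 ± 0.64 for Gm2a (adjusted p = 0.0715 and 0.933).

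Of 30 genes of the lysosomal membrane and proton pump, 29 rose and none fell against the low cells (median 0.99), 9 rose and none fell against the middle cells (median 0.13), and 23 rose and none fell without cells of other types (median 0.71). Lamp1, a main glycoprotein of the lysosomal membrane, was at 1353 and 1116 CPM in high, 929 and 849 CPM in middle and 515 and 403 CPM in low cells (1.64 ± 0.14 and 0.49 ± 0.08, adjusted p = 3.32e-09 and 2.20e-04). The proton pump subunit genes Atp6v0e, Atp6v0c and Atp6ap1 rose by 1.89, 1.35 and 1.35 against low and by 0.35, 0.30 and 0.46 against middle cells. Mcoln1 and Mcoln3, which encode cation channels of lysosomes and endosomes, rose by 1.55 and 1.86 and by 0.39 and 0.31. With the cells of each library put in 10 equal bins by their share of the 3 genes, the peptidase sum rose from each bin to the next, from 5911 to 15013 CPM in replicate 1 and from 4114 to 12172 CPM in replicate 2. The sum of membrane and pump genes came to 9614 and 8894 CPM in bin 7 and 9876 and 9273 CPM in bin 10, so that it changed little at the top.

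**Figure D2:**
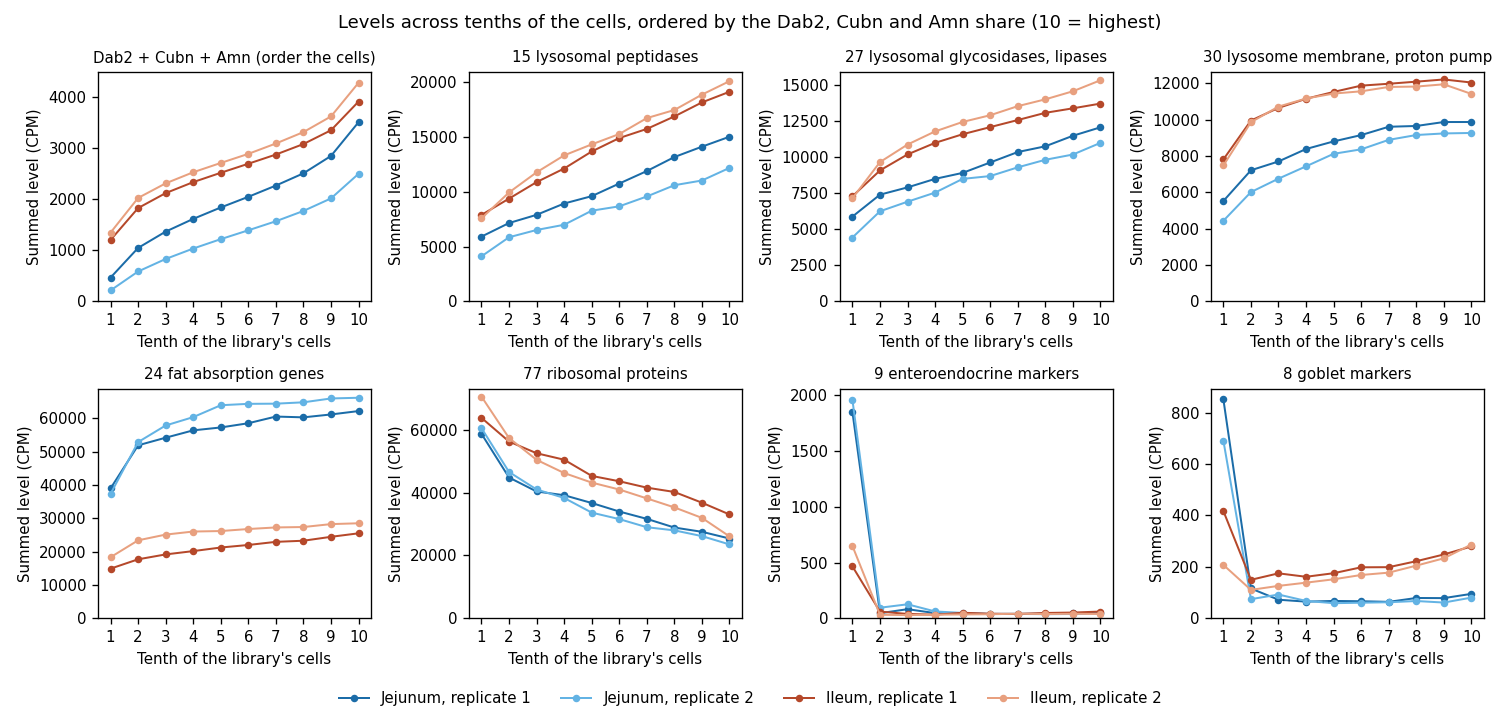
Summed level in CPM (vertical axes, from 0) of gene lists across 10 equal bins of each library's cells, ordered by the Dab2, Cubn and Amn share (horizontal axis, 10 the highest), 1 line per library. The peptidase sum climbs to 15013 and 12172 CPM in the highest jejunal bin, ribosomal proteins decline to 25381 and 23499 CPM, and enteroendocrine markers are high in the lowest bin alone.

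Genes of transcytosis and recycling rose as a group against the low cells, 26 of 32 with 2 lower (median 0.70), but 2 rose and 1 fell against the middle cells (median -0.01), and 13 rose and 1 fell without cells of other types (median 0.40). Fcgrt, the heavy chain of the neonatal Fc receptor, was at 5656 and 4870.2 CPM in high, 4037 and 4031 CPM in middle and 2747 and 2195 CPM in low cells. It rose by 1.3 ± 0.15 against low (adjusted p = 2.06e-07) and by 0.40 ± 0.08 against middle cells (adjusted p = 0.00258). Its partner B2m, beta-2-microglobulin, was at 1623 and 1939 against 1473 and 1808 CPM in middle cells and did not pass there (0.14 ± 0.08, adjusted p = 0.325). Rab11a, a GTPase of recycling endosomes, was the other gene that rose in both, at 883 and 804, 750.5 and 661, and 357 and 243 CPM in high, middle and low cells (1.72 ± 0.15 and 0.28 ± 0.08, adjusted p = 3.26e-09 and 0.0217). Pigr, the receptor that carries IgA from the basal side, fell in both, from 692 and 396 CPM in low to 305 and 58.9 CPM in middle and 248 and 39.8 CPM in high cells (-2.07 ± 0.25 and -0.36 ± 0.09, adjusted p = 3.63e-07 and 0.0103). The receptor of milk antibodies and that of IgA therefore moved in opposite directions along the range.

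Fat absorption genes showed the same contrast between references. Of 24 genes, 22 rose and 1 fell against the low cells (median 0.98), 3 rose and 2 fell against the middle cells (median 0.09), and 12 rose and none fell without cells of other types (median 0.44). Apoa1, Apoa4, Fabp1 and Fabp2 of this list were also used to keep cells. The 3 that rose against the middle cells were Cd36, a fatty acid translocase, Apob, the structural protein of chylomicrons, and Npc1l1, the cholesterol importer. Cd36 was at 226 and 250.1 CPM in high, 141 and 158 CPM in middle and 89.5 and 55.8 CPM in low cells (1.92 ± 0.16 and 0.69 ± 0.08, adjusted p = 2.68e-09 and 2.03e-06). Apob was at 2300.0 and 2159.6, 1896 and 1594, and 909 and 836 CPM (1.56 ± 0.15 and 0.37 ± 0.08, adjusted p = 9.52e-09 and 0.00265). Mfsd2a, a lipid transporter, and Plin2, which coats lipid droplets, were the 2 that fell against the middle cells, Mfsd2a from 147 and 562 to 115 and 469.8 CPM (-0.29 ± 0.08, adjusted p = 0.0163). Scarb1, a lipoprotein receptor, was the 1 that fell against the low cells, at 4.74 and 3.69 against 18.1 and 25.4 CPM, with 0.10 ± 0.34 against middle cells (adjusted p = 0.898) and 0.09 ± 0.59 without other types (adjusted p = 0.935).

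**Figure D3:**
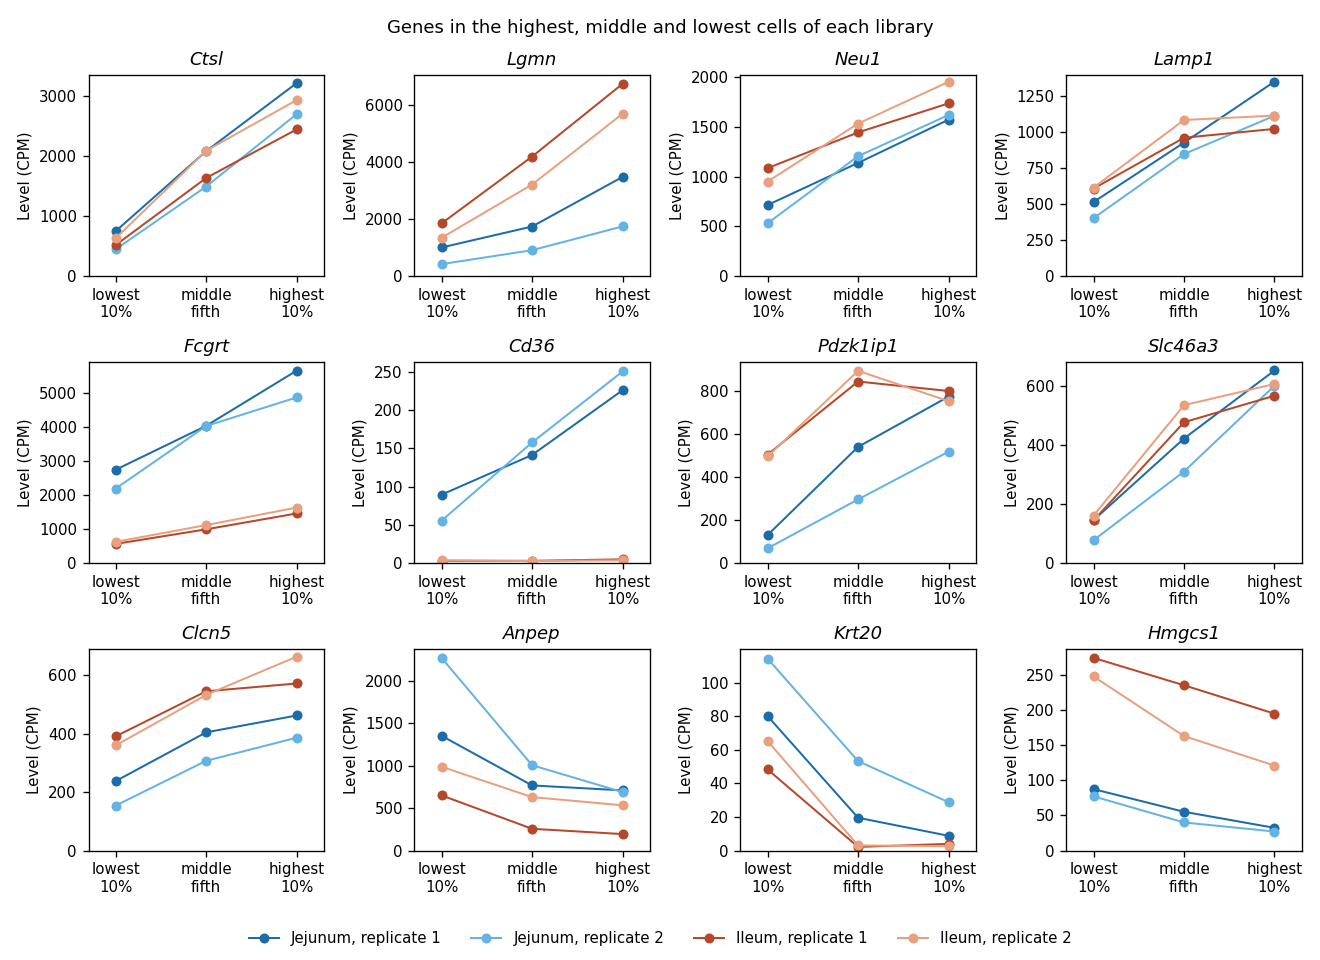
Level in CPM (vertical axes, from 0) of 12 genes in the lowest 10%, middle 20% and highest 10% of each library's cells, 1 line per library. Ctsl, Lgmn, Neu1, Lamp1, Fcgrt and Cd36 rise over all 3 groups in both jejunal libraries, whereas Anpep, Krt20 and Hmgcs1 decline.

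Digestive enzymes of the brush border split. Of 15 genes tested, 9 rose and 3 fell against the low cells, 5 of 14 rose and 2 fell against the middle cells, and 7 of 14 rose and 2 fell without cells of other types. Ace, a peptidyl dipeptidase, was at 1321 and 1227 CPM in high, 975 and 923 CPM in middle and 592 and 374 CPM in low cells (1.64 ± 0.15 and 0.44 ± 0.08, adjusted p = 9.89e-09 and 4.38e-04). Lct, lactase, Alpi, alkaline phosphatase, both used to keep cells, and Dpp4, a dipeptidyl peptidase, rose by 0.36, 0.36 and 0.27 against the middle cells. Anpep, aminopeptidase N, went the other way, from 1351 and 2267 CPM in low to 767 and 1005 CPM in middle and 708 and 688 CPM in high cells (-1.12 ± 0.18 and -0.31 ± 0.09, adjusted p = 2.93e-05 and 0.0276). Mgam, maltase-glucoamylase, was at 277 and 198, 206 and 173, and 144 and 115 CPM (-0.65 ± 0.14 and -0.53 ± 0.09, adjusted p = 6.50e-04 and 1.96e-04). Sis, the sucrase-isomaltase of weaned animals, had 1 UMI in all high cells and 318 in the low cells, 492 times lower per UMI with an exact 95% interval of 87.7 to 19496 that covers counting error only. Those 318 UMIs lay in 65 of the 1275 low cells, and Sis was too scarce to be tested against the middle cells.

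Of genes linked to villus position, Enpp3, an ectonucleotidase of the upper villus, was at 322 and 196 CPM in high, 167 and 116 CPM in middle and 115 and 61.2 CPM in low cells (1.78 ± 0.14 and 0.88 ± 0.09, adjusted p = 1.09e-09 and 4.96e-07). Krt20, a keratin of differentiated cells, went from 80 and 114 to 19.5 and 53.2 and to 8.77 and 28.7 CPM (-2.25 ± 0.22 and -0.97 ± 0.15, adjusted p = 1.39e-08 and 1.33e-04). These markers of mature cells thus moved apart. Of 10 listed genes of the upper villus, 9 were tested, of which 5 rose and 3 fell against the low cells, 2 rose and 1 fell against the middle cells, and 3 rose and 2 fell without cells of other types. Of 9 genes of the villus base, 5 were tested against the middle cells, of which 1 rose and 1 fell. Against the low cells 8 were tested, none rose and 6 fell, as many as without cells of other types, Dmbt1 among them at 20.4 and 9.83 against 119.7 and 156 CPM (-2.97 ± 0.26, adjusted p = 3.55e-09). Against the middle cells Dmbt1 did not pass (-0.41 ± 0.15, adjusted p = 0.082).

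Of 21 listed transcription factors, 7 rose and 6 fell against the low cells, beside 22.7% and 23.5% of all genes. Against the middle cells 2 rose and 1 fell, beside 5.72% and 6.62% of all genes, and 3 of 20 rose and 2 fell without cells of other types. Klf4, a factor of differentiated epithelium, was at 164 and 155 CPM in high, 115 and 113 CPM in middle and 103 and 133 CPM in low cells (0.66 ± 0.14 and 0.51 ± 0.09, adjusted p = 6.21e-04 and 3.68e-04). Its low and middle values overlapped between the libraries, while both high values lay above them. Maf, a factor of suckling enterocytes, was at 1084 and 1096 against 576 and 555 CPM in low cells (1.16 ± 0.14, adjusted p = 6.20e-07) and 960.2 and 929.8 CPM in middle cells (0.22 ± 0.08, adjusted p = 0.0643). Onecut2 fell in both comparisons, at 10.4 and 52.1, 15 and 70.8, and 48.9 and 161 CPM (-1.63 ± 0.17 and -0.46 ± 0.13, adjusted p = 6.55e-08 and 0.019).

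Among 13 carriers of amino acids and peptides, 9 rose and 4 fell against the low cells, 1 rose and 3 fell against the middle cells, and 7 rose and 3 fell without cells of other types. The 1 that rose in both was Slc15a1, the proton-coupled uptake carrier of di- and tripeptides, at 88.2 and 99.8, 67.3 and 72, and 41.3 and 41.7 CPM in high, middle and low cells (1.38 ± 0.15 and 0.45 ± 0.09, adjusted p = 8.59e-08 and 0.0015). Slc38a2, a neutral amino acid carrier induced by amino acid shortage, fell in both, from 265 and 348 to 148 and 166 and to 117 and 141 CPM (-1.03 ± 0.13 and -0.28 ± 0.08, adjusted p = 1.12e-06 and 0.0291).

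Ribosomal protein genes declined in all 3 comparisons. Of 77, 75 fell and none rose against the low cells (median -1.23), 68 fell and none rose against the middle cells (median -0.52), and 72 fell and none rose without cells of other types (median -1.05). Their sum was 25373 and 23499 CPM in high, 35315 and 32530 CPM in middle and 58728 and 60547 CPM in low cells. Rpl13, a protein of the large subunit, was at 372 and 319.7, 603 and 492, and 1243 and 1283 CPM (-1.66 ± 0.16 and -0.64 ± 0.08, adjusted p = 1.12e-08 and 1.27e-05). Reads of ribosomal protein genes can be lost to near-identical pseudogenes, so single members are uncertain. Sterol synthesis also declined, with 9 of 20 genes lower and 2 higher against the low cells (median -0.48, and 14 lower when scaled by UMI totals), 4 lower and none higher against the middle cells (median -0.14), and 8 lower and 1 higher without cells of other types (median -0.51). Hmgcs1, which commits acetyl-CoA to the pathway, was at 32.2 and 27, 55.1 and 39.9, and 87.3 and 77.1 CPM (-1.26 ± 0.17 and -0.66 ± 0.12, adjusted p = 2.50e-06 and 4.81e-04).

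By the rule of largest change, the genes that rose most against the low cells were Pitx3, Gpr50, Pdzk1ip1, Sh3tc2, Spp2, Slc46a3, Slc34a3, Tmem9, Apcdd1 and Ttr. Pitx3 is no property of the group, since its 211 UMIs came from 2 cells, 82 from 1 cell of replicate 1 and 129 from 1 cell of replicate 2. Pdzk1ip1, a small membrane protein of epithelia, was at 775 and 519 CPM in high, 541 and 297 CPM in middle and 131 and 69.8 CPM in low cells (2.92 ± 0.16 and 0.67 ± 0.08, adjusted p = 1.41e-12 and 7.47e-06). Slc46a3, a lysosomal membrane transporter, was at 651 and 599.6, 421 and 309.7, and 146 and 78 CPM (2.73 ± 0.17 and 0.80 ± 0.08, adjusted p = 1.89e-11 and 7.48e-07). Gpr50, an orphan receptor related to the melatonin receptors, was at 47.2 and 23.8, 23.8 and 16.2, and 5.71 and 3.63 CPM. Sh3tc2, known from endosomal recycling in Schwann cells, was at 34.4 and 22.1, 18.3 and 9.48, and 7.3 and 1.36 CPM. For these 2 and for Spp2, Slc34a3, Tmem9, Apcdd1 and Slc46a3 the difference also passed against the middle cells, at 0.56 to 1.04. Ttr, transthyretin, was at 553 and 536 in high against 474 and 476 CPM in middle cells and did not pass there (0.21 ± 0.08, adjusted p = 0.0987).

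The genes that fell most were Tpbg, Zfp57, Ccl5, Resp18, Sis, Pcsk1n, Fxyd3, Bex2, Chga and Gzma. Tpbg, Zfp57, Ccl5 and Resp18 had no UMI in the high cells, which against a floor of 3 UMIs over the group makes them at least 97.0, 78.9, 76.3 and 69.1 times lower. Several of these genes mark other cell types, Chga, Pcsk1n and Resp18 the granules of endocrine cells and Ccl5 and Gzma lymphocytes. The 153 UMIs of Zfp57 in low cells came from 2 cells, and those of Ccl5 and Gzma from 10 and 8. Chga was at 1.42 and 1.97 CPM in high, 1.55 and 1.76 CPM in middle and 332 and 492 CPM in low cells, and its difference against the middle cells was 0.04 ± 0.48 (adjusted p = 0.976). Chga was thus as scarce in the middle as in the high cells. Of the 7 macrophage markers, Csf1r rose, at 229 and 291 against 82.9 and 69.4 CPM (1.96 ± 0.16, adjusted p = 1.26e-09), while C1qa and C1qb had no UMI and Lyz2 3 UMIs in the high cells.

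**Figure D4:**
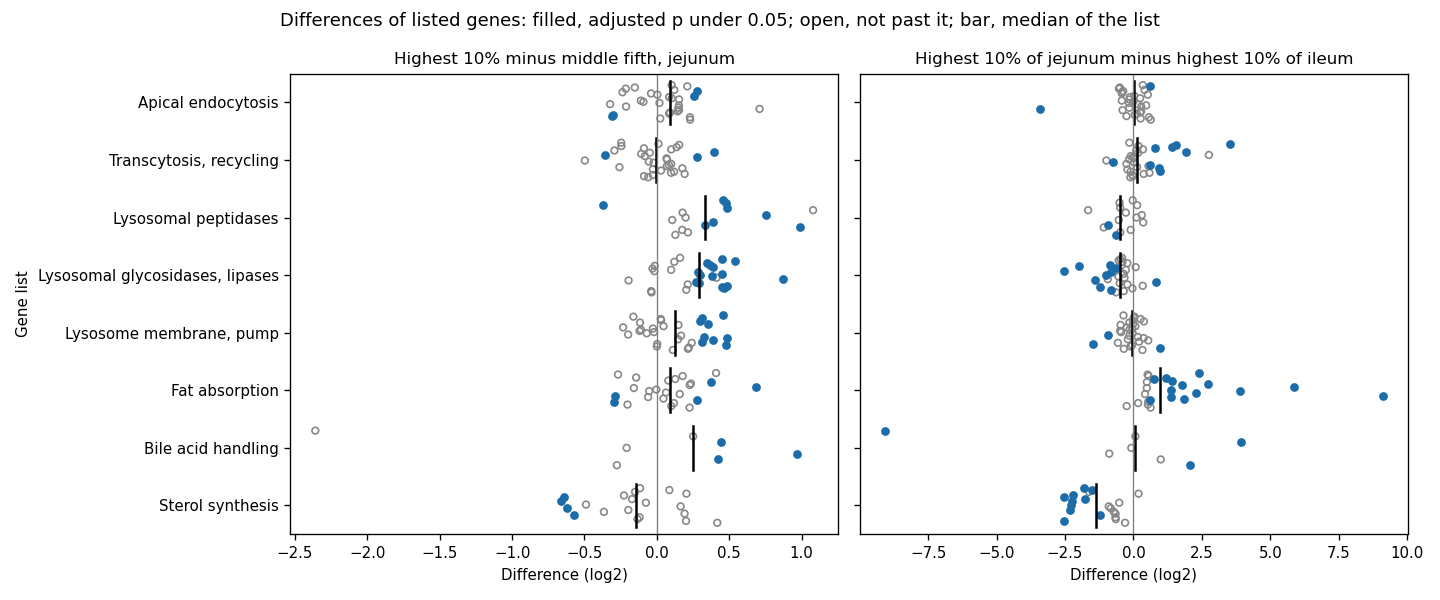
Log2 difference (horizontal axes) of each gene in 8 lists (vertical axis) between high and middle jejunal cells (left) and between high jejunal and high ileal cells (right). Filled points pass an adjusted p of 0.05, open points do not, and bars are list medians, at 0.34 and -0.48 for the peptidases and 0.09 and 0.98 for fat absorption.

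The difference of high and low jejunal cells was compared with that in the ileum, where 658 and 759 cells were chosen by the same rule. The 3 genes spanned more in the jejunum, at 7.52 and 11.7 times the low level in high cells, against 3.25 and 3.18 times in the ileum. A gene that follows the complex alike in both regions could therefore differ here. The part of this wider span was not tested. The difference of high and low cells differed between the regions for 902 of 13535 genes (6.66%), 464 higher (3.43%) and 438 lower (3.24%) in the jejunum. With the middle in place of the low cells 120 passed (0.867%, with 0.506% higher and 0.361% lower), without cells of other types 114 (0.987%, with 0.407% higher and 0.58% lower), and without the library as a block 3. No gene of the apical endocytosis or peptidase lists differed (medians 0.14 and 0.10). A p that misses the threshold does not show that the regions act alike, and the standard error of such a difference was 0.22 for Ctsl, whose value was 0.16 (adjusted p = 0.749).

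Bile acid genes did differ, 5 higher and none lower of 7, with 3 passing against the middle cells and 2 without other types. Slc51a, 1 subunit of the exporter that passes bile acids to the blood, rose from 555 and 409.8 CPM in low to 1165 and 1019 CPM in high jejunal cells, and went from 733 and 1079.6 CPM to 415 and 812 CPM in the ileum. The difference of the differences was 1.85 ± 0.21 (adjusted p = 6.06e-06). Nr0b2, a repressor induced by the bile acid receptor, was at 60.7 and 104 CPM in high and 16.2 and 24.9 CPM in low jejunal cells, but at 3.47 and 8.77 and at 5.42 and 6.3 CPM in the ileum (1.97 ± 0.36, adjusted p = 0.0015). Slc51b, the partner of Slc51a, Fgf15, the hormone that reports bile acids to the liver, and Nr1h4, the bile acid receptor FXR, differed by 1.72, 1.85 and 0.70. Fgf15 in high jejunal cells was at 94.1 and 42.8 CPM, with the replicates further apart than high and low cells of replicate 1 (90.8 CPM in low cells).

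By the rule of largest change, Serpina1a, Serpina1b, Cyp2d26, Zbp1 and Nr2e3 were higher and Bex2, Il18r1, Coro1a, Srgn and Afp lower in the jejunal difference. Serpina1a, a protease inhibitor gene of a family of near-identical copies, was at 275 and 399 CPM in high and 179 and 171 CPM in low jejunal cells, and at 0.947 and 2.24 against 17.6 and 21.4 CPM in the ileum (4.57 ± 0.35, adjusted p = 1.68e-08). Zbp1, a sensor of nucleic acids, was at 63.1 and 46.7 against 18.1 and 12.7 CPM in the jejunum and at 4.26 and 4.64 against 10 and 4.2 CPM in the ileum. Coro1a and Srgn are genes of blood cells, and in the jejunum they were at or under 0.246 CPM in high cells. Afp, alpha-fetoprotein, was at 6.4 and 3.69 CPM in high and 40 and 62.1 CPM in low jejunal cells, yet without cells of other types it rose in high cells (2.80 ± 0.64, adjusted p = 7.39e-04). Its regional difference of -4.96 then became 0.85, and was 0.14 with the middle cells.

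High jejunal cells were last compared with high ileal cells. The groups were not matched in the genes that chose them. Dab2, Cubn and Amn together were at 3508 and 2499 CPM in high jejunal and 3912 and 4280 CPM in high ileal cells. All kept ileal cells were at 2667 and 2821 CPM, so high jejunal cells stood above them in replicate 1 and below them in replicate 2. Dab2 alone was lower in both (706 and 570 against 863 and 722 CPM), while Cubn and Amn were higher in replicate 1 and lower in replicate 2. Of 12110 genes tested, 1446 passed (11.9%), 819 higher (6.76%) and 627 lower (5.18%) in the jejunum. With the animal as a block, which pairs the regions of each mouse, 2999 passed (24.8%), 13.5% higher and 11.3% lower. Scaled by UMI totals, 617 were higher (5.09%) and 1147 lower (9.47%), together 14.6%. The count was 375 without ileum replicate 1, 810 without ileum replicate 2 and 411 without jejunum replicate 2, where the lone sample was taken to vary like the others. Fat absorption genes were higher, 14 of 24 with none lower (20 with the block). Cd36 was at 226 and 250.1 against 5.21 and 3.96 CPM (5.86 ± 0.21, adjusted p = 3.21e-04), and Apoc2, a lipoprotein lipase cofactor, at 5687 and 6796 against 1048 and 1075 CPM (2.73 ± 0.20, adjusted p = 0.00334). Fcgrt was at 5656 and 4870.2 against 1464 and 1637 CPM (1.93 ± 0.19, adjusted p = 0.00536), and 8 of 31 tested transcytosis genes were higher with 1 lower.

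Of the lysosomal hydrolases, most did not pass between the regions, and more of those that did were lower than higher in the jejunum. Of the glycosidases and lipid hydrolases 9 of 27 were lower and 1 higher in high jejunal cells (13 lower and 1 higher with the block), and of the peptidases 2 of 15 were lower and none higher (8 lower with the block). Hexa was at 537 and 551 against 1149 and 1318 CPM (-1.01 ± 0.17, adjusted p = 0.0153). The 1 gene of that list to be higher was Lipa, at 308 and 399 against 226 and 221 CPM (0.83 ± 0.18, adjusted p = 0.0329). Ctsl did not differ beyond its spread (0.31 ± 0.19, adjusted p = 0.331). Lgmn, at 3488 and 1748 against 6759 and 5706 CPM, passed only with the block (-1.09 ± 0.31, adjusted p = 0.0689, and -1.16 ± 0.19, adjusted p = 8.70e-06). Lrp2 was at 10.7 and 1.72 against 88.5 and 60.5 CPM (-3.41 ± 0.56, adjusted p = 0.0153) and was, with the clathrin adaptor subunit gene Ap2a2 (0.61, higher in the jejunum), 1 of 2 genes of apical endocytosis to pass there. Sterol synthesis was lower in 10 of 20 genes and higher in none (16 lower with the block), with Hmgcs1 at 32.2 and 27 against 195 and 121 CPM (-2.24 ± 0.25, adjusted p = 0.00674).

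Among the largest differences between the high cells of the regions were those of Mfsd2a, Cntnap1, Serpina1a, Cyp2d26 and Fam13a, higher in the jejunum, and Fabp6, Scd2, Meg3 and Il18r1, lower. Mfsd2a was at 115 and 469.8 against 0.631 and 0.516 CPM, with the jejunal replicates far apart. Fabp6, the ileal bile acid binding protein, was at 0 and 0.246 against 42.5 and 133 CPM. Of genes that the study itself names as regional, 6 of 6 jejunal genes were higher and 5 of 6 ileal genes lower, which is no independent evidence, since the genes were picked for that difference. Against all 14187 kept ileal cells in place of the high ones, 1334 of 18894 genes passed (7.06%), 2.94% higher and 4.12% lower, and 3409 (18%, with 7.36% higher and 10.7% lower) with the block. That count was 602 without ileum replicate 1 and 461 without jejunum replicate 2. Fat absorption was then higher in 13 genes with none lower, and sterol synthesis lower in 14 with none higher. Ribosomal proteins were lower in 52 of 77 against all ileal cells and higher in 1, but lower in none and higher in 1 against the high ileal cells (18 lower and 2 higher with the block). Their sum was 25373 and 23499 CPM in high jejunal cells, 33037 and 26050.4 CPM in high ileal cells, 35612 and 33606 CPM in all kept jejunal cells and 45260.0 and 43369 CPM in all kept ileal cells, lower in both jejunal than in both ileal libraries over all kept cells. Region and the choice of cells therefore both enter the comparison with all ileal cells.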

How the data were processed

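Single-cell RNA of jejunal and ileal epithelium was measured in 4 PIPseq libraries. The authors deposited UMI counts per gene and called cell, made with PIPseeker at sensitivity level 3 per the study's methods, on GRCm39 per the submitters' processing notes. Cells were filtered and chosen as described, and counts were summed per library and group of cells. The sums, without Dab2, Cubn and Amn, were tested with edgeR 4.0.16 (R 4.3.3, filterByExpr, TMM factors, quasi-likelihood test, Benjamini-Hochberg adjustment, threshold 0.05). High and low cells of all 4 libraries entered 1 fit with the library as block, and the difference between the regions was its interaction term. High jejunal cells were compared with ileal cells without a block. Each mouse gave a segment of either region, which pairs the libraries by replicate number (deviations correlated at 0.343 across 6779 genes), and blocked counts are given too. With 2 mice, p-values of the blocked fit measure how the difference within a library varied over the 4 libraries, jejunal and ileal together. That fit had 2 residual degrees of freedom and a prior of 20.9 shared over genes. Its standard errors thus rest mostly on the prior and can understate the spread of a single gene. Without a block, p-values between the regions measure the spread between libraries of a region. Each UMI is 1 molecule, so intervals and floors cover counting error. Genes with the largest change were named by rule, 10 each way against low cells and 5 each way between regions, among genes past the threshold averaging 20 CPM or more in the group where they were higher, the same direction in both libraries and no gene-model name. The members, lists and rule were chosen with earlier results of these data known. Alternatives were DESeq2 1.42.0, its size factors, UMI totals alone, other limits and references, thinning to 2000 UMIs and leaving out libraries. In simulated counts with 100 genes changed by 1 on the log2 scale and 100 by 2, the test of high against low jejunal cells recovered 64% and 95%, that of the difference between regions 53% and 83%, that against high ileal cells 42% and 92%, and that against all ileal cells 5% and 66%. Some genes that the rule or the lists would name are not reported here.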

Additional observations from a re-analysis of the deposited data

Results flagged for a closer look

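Of 902 genes that passed, 17 are named here, for which the difference between high and low cells was itself different in the jejunum and the ileum by the interaction term of edgeR's quasi-likelihood fit (n = 2 libraries per region). Of these 17, 15 no longer passed without the replicate block and 9 no longer with cells thinned to 2000 UMIs. Against the middle cells 10 no longer passed and 2 changed sign, and without cells of other types 9 no longer passed, 2 changed sign and 4 kept passing in the same direction. In 7 of them the log2 difference was above 0 in the jejunum and below 0 in the ileum. These were Serpina1a at 1.13 and -3.44 (difference 4.57), Serpina1b at 0.57 and -2.49 (difference 3.06), Zbp1 at 2.04 and -0.46 (difference 2.50), Slc51a at 1.40 and -0.45 (difference 1.85), Slc51b at 0.93 and -0.79 (difference 1.72), Fgf15 at 0.79 and -1.06 (difference 1.85) and Nr1h4 at 0.45 and -0.25 (difference 0.70). Serpina1a and Serpina1b are near-identical copies, so their split is uncertain.

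Cyp2d26, a cytochrome P450 gene, and Nr2e3, a nuclear receptor gene, were lower in high cells of both regions, by less in the jejunum. Their differences between the regions were 3.06 and 2.46. Nr0b2, Cd36 and Pdzk1ip1 were higher in high cells of both regions, by more in the jejunum, with differences of 1.97, 1.44 and 2.12. The summed level of Dab2, Cubn and Amn also differed more between high and low cells in the jejunum, and the part of this was not tested.

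The negative differences were those of Bex2 (-7.27), Il18r1 (-6.78), Coro1a (-5.52), Srgn (-5.08) and Afp (-4.96). Coro1a and Srgn are expressed in blood cells, and immune markers were seen in 11 and 8 low jejunal cells but in 2 and 7 low ileal cells. Afp and Il18r1 were lower in high than low cells in the jejunum and higher in the ileum. The part of the other cell types in these differences was not tested beyond the values given under the processing alternatives.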

How the results depend on the processing

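The count of genes that differed between high and low jejunal cells (6264) was 3907 by DESeq2, 3060 with cells thinned to 2000 UMIs, 1709 against the middle cells and 3220 without cells holding markers of other types, and 4526 to 6529 with 1 library left out. Thinning also lowered the number of genes tested, to 10697. In ileal cells the count was 5007, with 2343 by DESeq2, 2621 without the replicate block, 2127 thinned, 2040 against middle cells and 2947 without other types, and 2919 (without ileum replicate 2) to 5405 with 1 library left out. The difference between the regions (902) was the result that moved most, to 293 by DESeq2, 3 without the replicate block, 514 with the highest and lowest 5%, 71 thinned, 120 against middle cells and 114 without other types, and 632 to 1157 with 1 library left out. High jejunal against all ileal cells (1334) gave 2494 by DESeq2, 204 with no filter on low counts and 3409 with the replicate block, and 461 to 1082 with 1 library left out. Against high ileal cells (1446) the count was 2703 with no filter, 2999 with the replicate block and 375 to 1105 with 1 library left out. The cause of these moves was not tested, the numbers of genes or samples apart. Leaving out cells with markers of other types kept 6105 of 7743 and 3799 of 5011 jejunal cells. It kept 3291 of 6589 and 4432 of 7598 ileal cells, so that those counts also rest on fewer cells. Scaling by UMI totals shifted the median of all genes by -0.21, -0.17, -0.17 and -0.12 in the comparisons of high with low jejunal, low ileal, high ileal and all ileal cells.

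Dab2 and Cubn, in cells chosen by the other 2 genes, kept their direction in each alternative run for them, at 0.85 to 1.10 and 0.73 to 1.78 with 1 library left out. Amn ranged from 0.53 to 1.04 there. Dab2 and Cubn passed without the replicate block and thinned, whereas Amn did not (0.67 and 0.25). Middle cells, the removal of cells of other types and scaling by UMI totals were not among these alternatives. The level of the 3 genes was 2167 CPM in UMIs that did not choose the cells against 3003 ± 714 CPM (SD, n = 2). Some genes changed sign with the reference, against middle cells Ids at 0.87, Scarb1 at 0.10, Chga at 0.0358, Tff3 at 0.52, Mfsd2a at -0.29 and Plin2 at -0.30, and without cells of other types Ids at 1.01, Gm2a at 0.10, Scarb1 at 0.0874 and Plin2 at -0.0414. Tfeb, which did not pass, was at -0.0191 with the highest and lowest 20%, -0.011 without the highest doublet scores, -0.18 against middle cells, -0.0827 in bins, -0.13 without other types and -0.17 scaled by UMI totals. Between the regions Coro1a was at 0.0811 and Afp at 0.14 against middle cells, and Il18r1 was at 0.81 and Afp at 0.85 without other types. Limits remain with 2 mice and a median of 17 rule UMIs per high cell, that 1 library can set a count and that the cells' order is partly counting error.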
